A study of Mus musculus with 2 samples.

Results

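The IL-1 family is represented here by 10 genes of ligands, antagonists and receptors, namely *Il1a*, *Il1b*, *Il1rn*, *Il18*, *Il18bp*, *Il33*, *Il1r1*, *Il1r2*, *Il1rap* and *Il1rl1*. They were taken by gene symbol from a table of 37451 genes, and each symbol had 1 row. Bone marrow-derived macrophages (BMDMs) were grown with CSF-1 from marrow of C57BL/6 mice aged 7 to 9 weeks. The groups were littermates, WT mice and TTPΔM mice (C57BL/6 TTP fl/fl LysMCre, called ΔM), which lack the TTP gene *Zfp36* where lysozyme M drives Cre, that is, in myeloid cells. Both cultures received 100 μM 4-thiouridine (4sU) for 16 h and then 10 ng/ml LPS for 6 h as the treatment protocol states (the sample titles add a 7 to LPS that is not explained), and no untreated culture was analysed here. There was 1 library per genotype, so every difference between WT and ΔM lacks a replicate check and has no p-value. The number of mice behind a culture is not given in the sources used here.

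IL-1α and IL-1β, encoded by *Il1a* and *Il1b*, both bind the receptor IL1R1, which signals together with the accessory protein encoded by *Il1rap*. The product of *Il1rn* occupies the same receptor without starting a signal, and IL1R2 is a decoy that binds ligand but lacks the intracellular signaling domain. IL-18 is held in check by the soluble IL-18 binding protein (*Il18bp*), and IL-33 acts through the receptor ST2, the product of *Il1rl1*. Macrophages exposed to LPS are a main source of IL-1β and of the receptor antagonist. Tristetraprolin (TTP) binds AU-rich elements in 3′ UTRs and promotes the decay of many cytokine mRNAs.

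The elements in question can be seen in the sequences that the study lists as sites bound by TTP or by HuR, an mRNA-stabilizing protein, in LPS-treated BMDMs. Listed TTP sites were read for *Il1a*, *Il1b* and *Il1rn* only, and listed HuR sites for *Il1rn* only. Whether the other members have listed sites was not examined here. Of the sites read, 4 are shown in full or in part as examples from the agonists and the antagonist. Each one matched mouse chromosome 2 of NCBIM37 (mm9) and is written in the sense orientation as DNA. For sites over 30 nt, the 30 nt window with the most pentamers ATTTA and heptamers TATTTAT is printed. Capitals mark the pentamer, except in the *Il1rn* TTP site, where they mark the 7 nt site itself between 10 nt of flank on either side.
Il1b TTP site, 3′ UTR: ccacttacctATTTATTTAtgtATTTAttg
Il1a TTP site, 3′ UTR: ttttatctatgtATTTAtaaatatATTTAt
Il1rn TTP site, 3′ UTR: gatctcatagTTATTTTattaggccag
Il1rn HuR site (1 of several), 3′ UTR: ttttaattctccttgttattcattttgg

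The *Il1b* window (chr2:129190541-129190570, minus strand) was in the untranslated end of exon 7 of 7 and held 3 pentamers, each inside a copy of TATTTAT, 1 form of the motif that the study describes as preferred by TTP. The *Il1a* window (chr2:129125844-129125873, minus strand) was in exon 7 of 7 and held 2 heptamers. The *Il1rn* window around the TTP site (chr2:24205732-24205758, plus strand) was in exon 5 of 5 and held 0 pentamers. Several HuR sites are listed for *Il1rn*, and the one shown (chr2:24205592-24205619, plus strand), chosen because it can be printed whole, also held 0 pentamers. It does not overlap the TTP site, and the other listed HuR sites were not analysed here. The study does name *Il1rn* among the genes in which sites of the 2 proteins overlap in the 3′ UTR. A TTP site of *Il1a* in intron 5 (chr2:129130117-129130145, minus strand) held 2 overlapping pentamers and 0 heptamers.

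The libraries differed in the targeted gene as their labels state, since *Zfp36* was at 65.3 FPKM in WT against 16.7 in ΔM. FPKM is a fragment count divided by exon length and by the size of the library, so that levels of different genes can be compared per length. Low FPKMs come in steps of 1 fragment, and these steps put the depth at about 36350000 fragments in WT and 32400000 in ΔM. The intervals given for single genes are 95% Poisson intervals from these depths, are approximate, and cover counting error only. All 8 macrophage markers exceeded 1 FPKM, with a summed level of 4001 in WT and 2864 in ΔM. Most of this difference came from *Lyz2*, the lysozyme M gene whose locus drives the Cre, at 2481 FPKM in WT against 1356 in ΔM. The other markers differed in both directions. Higher in ΔM were *Csf1r* (104 FPKM in WT against 119), *Fcgr1* (306 against 329) and *Mertk* (2.15 against 3.48). Lower in ΔM were *Emr1* (380 FPKM in WT against 357), *Itgam* (223 against 200) and *Cd14* (117 against 110). *Cd68* differed least, at 388 FPKM in WT against 390 in ΔM. Of 46 markers of 9 other cell types, 42 were under 1 FPKM in both libraries, the others being *S100a8*, *Cd4*, *Kdr* and *Vwf*. The neutrophil marker *S100a8*, whose list had a summed level of 50.8 FPKM in WT against 100.5 in ΔM, was at 50.7 and 100.02 FPKM, while *Ly6g*, *S100a9*, *Elane* and *Ngp* were listed at 0 in both. The endothelial list summed to 8.23 and 5.07 FPKM, of which *Kdr* made up 5.59 and 3.23 FPKM. The other lists summed to at most 1.04 FPKM in WT and at most 0.8 in ΔM. The part of these cell types in the values below was not tested. In cell populations, fewer cells that express a gene and less RNA per cell cannot be told apart.

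The agonist *Il1b* and the receptor antagonist *Il1rn* were by far the most abundant members. *Il1rn* was at 980 FPKM in WT against 987 in ΔM, which ranked it 17 and 16 among the 22259 protein-coding genes of the table. *Il1b* was at 875 FPKM in WT against 741 in ΔM, at ranks 20 and 22. The *Il1rn* values differed by less than their counting error, with intervals from 966 to 995 FPKM in WT and from 972 to 1003 FPKM in ΔM. The *Il1b* values did not overlap in counting error, with 861 to 888 FPKM in WT and 727 to 754 FPKM in ΔM, and the ratio of ΔM to WT was 0.85.

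Far below these, *Il1a*, the other agonist of the same receptor, was at 27.9 FPKM in WT (26.6 to 29.2) against 22.0 in ΔM (20.8 to 23.2). *Il1b* therefore stood at 31.3 times the level of *Il1a* in WT and at 33.7 times in ΔM. Both genes lie on the minus strand of chromosome 2 (*Il1a* from 129125346 to 129135708, *Il1b* from 129190306 to 129196875), with 54597 nt between them. Both agonist transcripts were lower in ΔM, by log2 ratios of -0.33 for *Il1a* and -0.24 for *Il1b*. These ratios, like all log2 ratios below, are of ΔM to WT after 1 FPKM was added to each value, which understates the change of low genes.

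**Figure D1:**
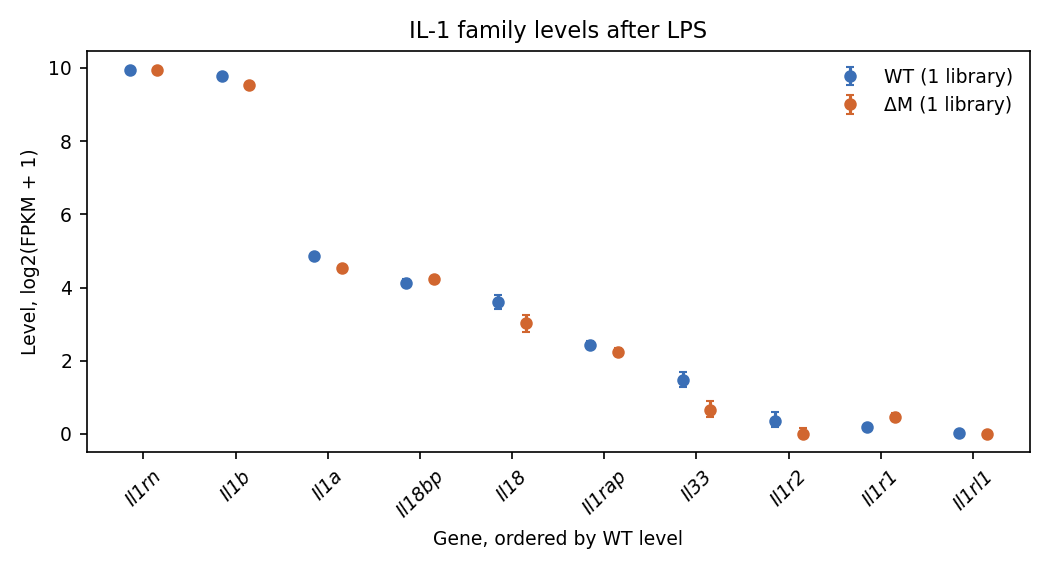
Level of each IL-1 family gene as log2(FPKM + 1) in the WT library (blue) and the ΔM library (orange), with genes ordered by WT level; points are 1 library each and bars are approximate 95% counting intervals. *Il1rn* and *Il1b* stand at 741 FPKM or more in both libraries, whereas *Il1r1*, *Il1r2* and *Il1rl1* are below 1 FPKM.

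The balance of agonist and antagonist transcripts was set side by side within each library. The summed FPKM of *Il1a* and *Il1b* was 902 in WT and 763 in ΔM. Divided by *Il1rn*, the sum gave 0.92 in WT and 0.77 in ΔM, so that the agonist FPKM was below the antagonist FPKM in both. The order of different genes within a library also depends on the transcript lengths behind each FPKM, which counting intervals do not cover. For *Il1b* alone against *Il1rn* the ratio was 0.89 in WT (0.87 to 0.91) and 0.75 in ΔM (0.73 to 0.77). These counting intervals did not overlap, and the numerator rather than the denominator differed between the libraries.

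*Il18* encodes a ligand that, like IL-1β, is made as a precursor and cut by caspase-1. It was at 11.2 FPKM in WT (9.70 to 12.8) against 7.11 in ΔM (5.88 to 8.53). Its log2 ratio was -0.59, with a counting interval from -0.89 to -0.29. The soluble inhibitor *Il18bp* was at 16.4 FPKM in WT (15.3 to 17.7) against 17.7 in ΔM (16.4 to 19.1), where the counting intervals overlapped. The ratio of *Il18* to *Il18bp* was 0.68 in WT (0.58 to 0.79) and 0.40 in ΔM (0.33 to 0.49). The ligand FPKM was thus below that of the inhibitor in both libraries, as in the IL-1 pair, and the ratio was lower in ΔM beyond counting error. *Il18* lies on chromosome 9 (50383378 to 50389942, plus strand) and *Il18bp* on chromosome 7 (109163593 to 109166669, minus strand).

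*Il33* (chromosome 19, 29999604 to 30035208, plus strand), an alarmin known mainly from stromal and epithelial cells, was at 1.78 FPKM in WT (1.41 to 2.21) against 0.58 in ΔM (0.37 to 0.87). The ratio of the FPKMs was 0.33, resting on about 81.2 fragments in WT and 23.5 in ΔM. On the scale with 1 FPKM added, the log2 ratio was -0.82 (-1.11 to -0.50), and with 0.1 FPKM added it was -1.47. Among the marker genes of stroma, *Col1a2* was at 0.20 and 0.18 FPKM and *Col3a1* at 0.30 and 0.09 FPKM. The whole stromal list of 6 genes summed to 0.91 FPKM in WT against 0.52 in ΔM with *Lum* at 0, and the epithelial list of 4 genes to 0.04 and 0.06 FPKM with *Krt14* at 0. The part of these cells in the *Il33* values was not tested. With *Il33* so low, its receptor gene *Il1rl1* was lower still, at 0.01 FPKM in WT and listed at 0 in ΔM.

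All 4 receptor genes were below *Il1a*, *Il1b* and *Il18*, whereas *Il1rap* was above *Il33*. The accessory chain *Il1rap* (chromosome 16, 26581790 to 26730203, plus strand) was at 4.42 FPKM in WT (4.03 to 4.83) against 3.71 in ΔM (3.34 to 4.11). The signaling receptor *Il1r1* was at 0.14 FPKM in WT (0.089 to 0.21) against 0.38 in ΔM (0.29 to 0.49), that is, about 23.4 and 56.5 fragments. Its ratio of 2.71 was the only one among the 10 genes that was higher in ΔM by more than 2-fold, at levels below the minimum used for counting changed genes. *Il1rap* was 31.6 times the level of *Il1r1* in WT and 9.76 times in ΔM. The decoy *Il1r2* was at 0.28 FPKM in WT (0.14 to 0.51, about 10.2 fragments) and listed at 0 in ΔM, so that no fold is given. In WT the ratio of *Il1r2* to *Il1r1* was 2.0 with a counting interval from 0.85 to 4.36, so that their order was not detectable at this depth. A value of 0 can also be a failed estimate, since 1 of 75 ribosomal protein genes was listed at 0 in WT and 2 in ΔM. The longest coding sequence of *Il1r2* in the annotation was 1233 nt against 1731 nt in *Il1r1*.

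*Il1r2*, *Il1r1* and *Il1rl1* belong to a cluster of receptor genes on the plus strand of chromosome 1. From the start of *Il1r2* (40141613) to the end of *Il18rap* (40608550) the cluster spans 466938 nt. *Il1rl2*, the IL-36 receptor gene, was at 0.03 FPKM in WT against 0.09 in ΔM. *Il18r1*, the ligand-binding chain for IL-18, was listed at 0 in WT and was at 0.02 FPKM in ΔM. At the far end, *Il18rap*, the accessory chain for IL-18, was at 1.06 FPKM in WT (0.82 to 1.35) against 1.39 in ΔM (1.10 to 1.73), where the intervals overlapped. *Il18rap* was the only gene of the cluster that reached 1 FPKM in either library.

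In both libraries the levels followed the order *Il1rn*, *Il1b*, *Il1a*, *Il18bp*, *Il18*, *Il1rap* and *Il33*. In WT, *Il1r2*, *Il1r1* and *Il1rl1* came last. In ΔM, *Il1r1* followed *Il33*, with *Il1r2* and *Il1rl1* at 0. No spread between replicates is known, so neighbors can be compared only by counting error. *Il1a* was above *Il18bp* by 1.70 times in WT (1.55 to 1.85) and by 1.24 times in ΔM (1.13 to 1.37). *Il1rap* was 2.48 times *Il33* in WT (1.97 to 3.19) and 6.40 times in ΔM (4.15 to 9.92). In ΔM the intervals of *Il33* and *Il1r1* overlapped.

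Changed genes were counted where the mean of both libraries reached 1 FPKM. Of the 10 members, 7 met this minimum, and 0 of the 7 differed by 2-fold or more on the log2(FPKM + 1) scale, beside 9.31% of all 10765 genes that met it (5.69% higher and 3.61% lower in ΔM) and 2.51% of the 8078 protein-coding ones (1.19% higher and 1.32% lower). *Il33* met the minimum only through its WT value, at 1.78 FPKM in WT against 0.58 in ΔM. The members that did not meet it were *Il1r1*, higher in ΔM (0.14 FPKM in WT against 0.38), and *Il1r2* and *Il1rl1*, listed at 0 in ΔM. Which members were counted in each direction therefore depended in part on this minimum. At 1.5-fold, *Il33* and *Il18* were lower in ΔM and 0 members were higher. *Il18* lay at the edge of that threshold with a log2 ratio of -0.586, and it no longer passed when ratios were centred on protein-coding genes (-0.584) or scaled to the upper quartile (-0.582). At that threshold 18.7% of all genes (11.2% higher, 7.51% lower) and 10.2% of protein-coding genes (4.82% higher, 5.36% lower) were counted. The count of lower members at 2-fold depended on the amount added, as *Il33* passed it with 0.5 or 0.1 FPKM added. The 7 log2 ratios had a median of -0.24, between -0.82 for *Il33* and 0.10 for *Il18bp*. Of the 7, 5 were below 0, beside 45.9% of all genes counted and 50.2% of protein-coding genes. The median over all genes counted was 0.03, and that over protein-coding genes was -0.0015, with quartiles of -0.19 and 0.18.

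**Figure D2:**
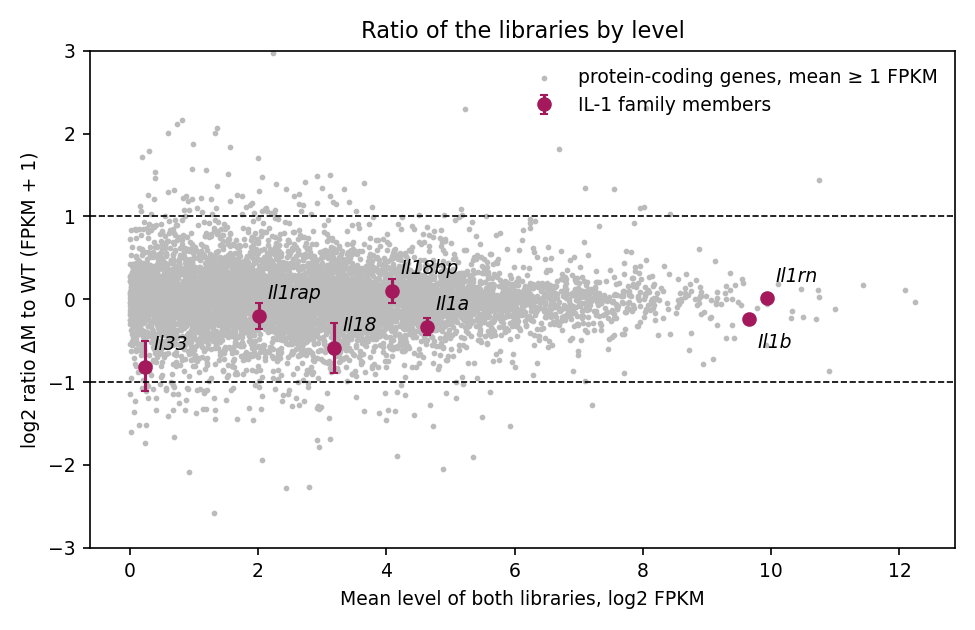
Log2 ratio of ΔM to WT (1 FPKM added) against the mean level in log2 FPKM for protein-coding genes that reach 1 FPKM on average (gray) and the 7 members that met this minimum (purple, bars are approximate 95% counting intervals); dashed lines mark 2-fold, and 10 genes lie outside the axis. All 7 members lie between the dashed lines, *Il33* being the lowest at -0.82 and *Il18bp* the highest at 0.10.

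Placed among these 8078 protein-coding genes, the *Il33* ratio was at or above that of 2.22% and the *Il18* ratio at or above that of 5.36%. The agonists were at 14.1% for *Il1a* and 20.9% for *Il1b*. *Il1rap* was at 24.4%, with a log2 ratio of -0.20. The antagonists lay on the other side of the middle, *Il1rn* at 51.7% and *Il18bp* at 65.5%. These shares describe where each ratio lay in a single pair of libraries. For *Il1rn*, whose log2 ratio was 0.01, no direction can be given, because it became -0.02 when ratios were centred on the median of all genes.

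*Il1a* had the largest absolute log2 ratio among members that averaged 10 FPKM or more. The genes closest to its pair of levels, by distance on the log2(FPKM + 1) scale over the 2 libraries, were *Tmem188*, at 28.4 FPKM in WT against 21.6 in ΔM, and *Emg1*, at 28.3 and 21.4 FPKM. In all, 25 genes were within a distance of 0.1. A likeness over 2 values is a description only.

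The annotated 3′ UTRs were searched on the transcript strand for the pentamer ATTTA and for the heptamer TATTTAT, which contains it, with overlapping copies counted. Of 20007 genes with an annotated 3′ UTR, 61.3% had the pentamer and 23.8% the heptamer in the longest one. The 3′ UTR of *Il1b* has 459 nt and held 4 pentamers and 3 heptamers. Among 2060 genes with a 3′ UTR of 0.8 to 1.25 times that length, 10.8% had a heptamer and 0.49% had at least as many as *Il1b*. The 3′ UTR of *Il1a* has 1101 nt and held 3 pentamers, all of them inside its 3 heptamers. At its length, 75.6% of 2990 genes had a pentamer and 32.0% had at least as many as *Il1a*. A heptamer was found in 25.9%, and 1.97% had at least as many heptamers.

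The antagonist differed from them in sequence. *Il1rn* held 0 pentamers and 0 heptamers in 1864 nt of 3′ UTR, while 86.8% of 3081 genes with a 3′ UTR of like length had a pentamer and 36.0% a heptamer. *Il18bp* held 1 pentamer and 0 heptamers in 667 nt. *Il33* held 3 pentamers and 0 heptamers in 1663 nt. At the lengths of *Il18bp* and *Il33*, 57.6% and 84.3% of genes had a pentamer, and 16.8% and 33.8% a heptamer.

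Among the receptors, *Il1r1* held 8 pentamers and 2 heptamers in 2805 nt, and *Il1rl1* held 3 and 2 in 3246 nt. *Il1rap* held 9 pentamers in 2686 nt, and its number of heptamers was 1 in the longest 3′ UTR but 3 in the 3′ UTR of its longest transcript. At these lengths a pentamer was found in 93.3%, 94.9% and 93.0% of genes, and a heptamer in 45.7%, 50.6% and 44.1%. *Il18* held 1 pentamer and 0 heptamers in 123 nt, and at that length 16.5% of 973 genes had a pentamer and 2.98% a heptamer. The annotated 3′ UTR of *Il1r2* has only 12 nt and held 0 pentamers. A match is a description of letters and not a bound site.

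**Figure D3:**
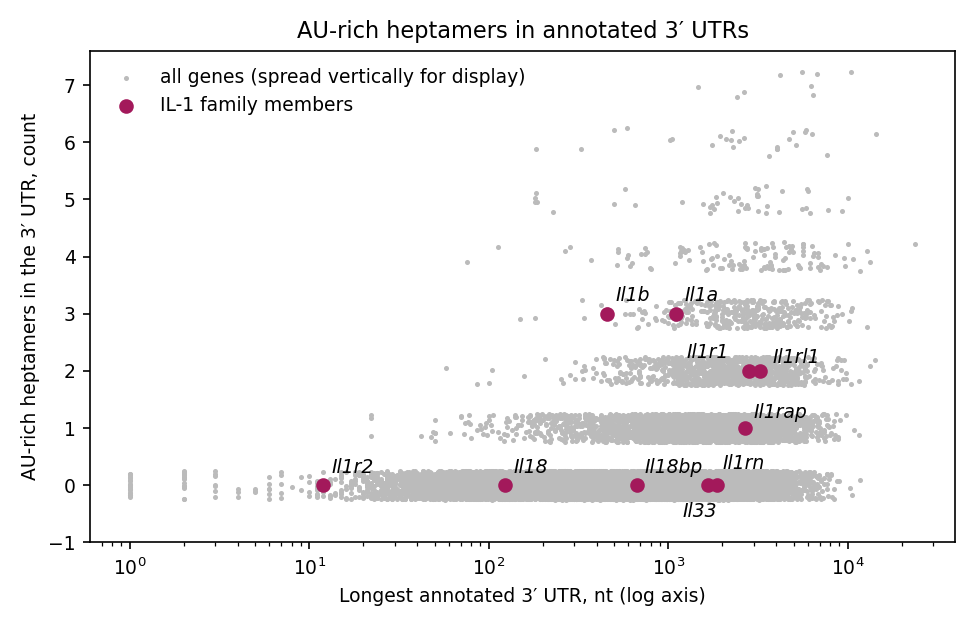
Number of TATTTAT heptamers in the longest annotated 3′ UTR of each gene against its length in nt on a log axis, for all genes (gray, spread vertically around whole numbers for display; counts above 7 are not drawn) and the 10 IL-1 family genes (purple). *Il1b* with 459 nt and *Il1a* with 1101 nt both hold 3 heptamers, whereas *Il1rn* holds 0 in 1864 nt.

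The remaining ligands and receptors of the family were low. Of 11 genes, 3 had a mean of at least 1 FPKM and 0 of these passed 2-fold in either direction with 1 FPKM added. The share past 2-fold was 9.31% over all genes counted and 2.51% over protein-coding genes. The most abundant of the 11 was *Il1f9*, the gene of the agonist IL-36γ, at 1.95 FPKM in WT (1.59 to 2.36) against 1.26 in ΔM (0.96 to 1.62). *Il1f6*, the gene of the agonist IL-36α, was chosen after its values were seen. It was at 1.65 FPKM in WT (1.11 to 2.37) against 0.37 in ΔM (0.13 to 0.82), which stand for about 29.1 and 5.80 fragments. With 1 FPKM added its log2 ratio was -0.95, just short of 2-fold, and the added amount understates the change at such low levels. Both genes lie upstream of *Il1rn* on the plus strand of chromosome 2 (24192373 to 24207014 for *Il1rn*). In the same interval *Il1f5* and *Il1f10* were at or below 0.08 FPKM, so that *Il1rn* was the only strongly expressed gene of this cluster.

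Genes that act on the ligands or below the receptors were next compared. Of 16 genes of ligand processing and release, 13 had a mean of at least 1 FPKM and 0 passed 2-fold, beside the same shares of 9.31% and 2.51%. The log2 ratios of the 13 lay between -0.68 and 0.40 around a median of 0.01. The most abundant, *Casp1*, the protease that cuts the IL-1β and IL-18 precursors, was at 125 FPKM in WT (122 to 128) against 135 in ΔM (131 to 139). The lowest ratio of this list belonged to *Nlrp3*, the sensor of the inflammasome that activates caspase-1, at 38.5 FPKM in WT (37.5 to 39.6) against 23.7 in ΔM (22.8 to 24.6), a gene chosen after its values were seen. All 18 genes of receptor signaling had a mean of at least 1 FPKM, and 0 passed 2-fold, beside the same shares. Their median log2 ratio was -0.11, with a range from -0.70 to 0.40. The adaptor *Myd88*, shared by IL-1 receptors and Toll-like receptors, was the most abundant at 53.9 FPKM in WT (52.0 to 55.8) against 59.9 in ΔM (57.9 to 62.0). The kinase gene *Irak2*, likewise chosen after its values were seen, had the lowest ratio and was at 29.6 FPKM in WT (28.2 to 31.0) against 17.9 in ΔM (16.8 to 19.1).

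**Figure D4:**
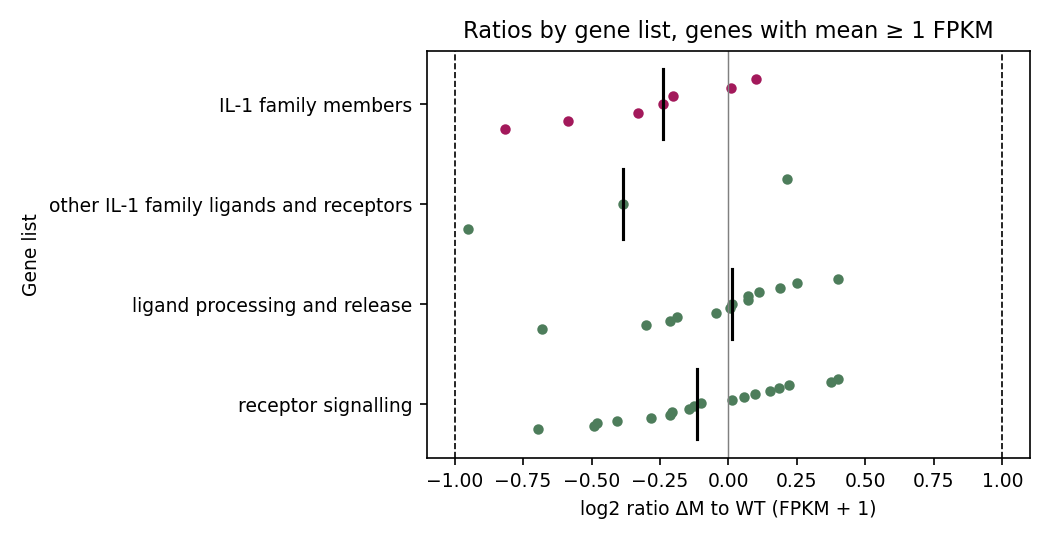
Log2 ratio of ΔM to WT (1 FPKM added) in 4 gene lists, for each gene that averaged 1 FPKM or more; each point is a gene, black bars are medians, and dashed lines mark 2-fold. The 7 IL-1 family members have a median of -0.24, against 0.01 for ligand processing and -0.11 for receptor signaling, and no point reaches a dashed line.

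Some members share their locus with an antisense transcript. *Il1a* overlaps the lincRNA *Gm14023* on the opposite strand over 8217 nt, which was at 0.87 FPKM in WT against 0.40 in ΔM, far below *Il1a*. *Il1b* overlaps *Gm14047* over 1243 nt, at 0.02 FPKM and 0. *Il1rap* overlaps a transcript on the opposite strand at 0.06 and 0.07 FPKM, and *Il1r2* overlaps *Gm16894*, listed at 0 in both libraries. Whether the values were calculated with regard to strand is not given in the sources used here. *Il1rn* and *Il1rap* have 6 and 7 annotated transcripts, and the values per gene do not separate secreted or soluble forms from the others.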

How the data were processed

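The deposited values are FPKMs, 1 per Ensembl gene and library. The authors depleted rRNA, sequenced paired ends, trimmed and aligned reads with Segemehl (mm9), retained unique alignments and ran Cufflinks on Ensembl exons. The WT column was assigned by name. The other header has lost the character before M and was assigned to ΔM because the WT title holds no M. File starts, which count from 0, were raised by 1. Gene types, strands and 3′ UTRs came from GENCODE M1 (NCBIM37), which held 37039 of 37451 identifiers.

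Log2 ratios used 1 FPKM added and a mean of at least 1 FPKM, and 2-fold served as threshold. No test was run with 1 library per genotype. Depth came from a search for the number and length of fragments that make low FPKMs of single-transcript genes whole (within 0.1 of a whole number for 85.2% of values in WT and 86.0% in ΔM). It was tested on 3 simulated libraries with a fixed fragment length. Intervals and fragment numbers used the median annotated transcript length, and they depend on that choice. For *Il1b* this length was 689 nt, shorter than its longest coding sequence of 810 nt. For *Il1rn* it was 682 nt, shorter than its longest annotated 3′ UTR of 1864 nt. Intervals of ratios within a library are exact binomial. Of the genes in fixed lists, those past 2-fold and the most abundant were named, as were all macrophage markers and some further genes. Members and lists were chosen with earlier results of these data known. Alternatives covered the pseudocount, filter, threshold, scaling, depth and choice of 3′ UTR. Protein sequences were not used here. Python 3.11.15, numpy 2.4.6, scipy 1.17.1, pandas 2.3.3 and matplotlib 3.10.9 were used.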

Additional observations from a re-analysis of the deposited data

How the results depend on the processing

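No paired analysis was possible because there was 1 library per genotype, and no library could be left out. Of 86 values recomputed under an alternative, 72 stayed within their counting interval (counts of genes or motifs, within 1.5 times the reported number) and 14 did not. With 0.1 FPKM added, the log2 ratio was -1.47 for *Il33* and 1.0 for *Il1r1*, and with 0.5 FPKM added it was 0.46 for *Il1r1* (0.28 with 1 FPKM added). The members lower by 2-fold numbered 1 with 0.5 or 0.1 FPKM added and 2 at 1.5-fold, against 0. Among all genes, 1002 passed 2-fold. The number was 436 with a mean of at least 10 FPKM, 203 among protein-coding genes and 2010 at 1.5-fold, by construction. The ratio of agonists to *Il1rn* was 0.89 in WT and 0.75 in ΔM with *Il1b* alone, and 0.028 and 0.022 with *Il1a* alone. *Il1rap* had 3 heptamers in its longest transcript. No ratio is reported for *Il1r2* and *Il1rl1*, because a fold against a listed 0 depends on the amount added. *Il18* passed 1.5-fold at -0.586 but not after centring on protein-coding genes (-0.584) or upper quartile scaling (-0.582). The planned depth estimate from transcripts of 1000 nt or more was not run, since 2 decimals do not resolve single fragments there. Transcripts of 400 nt or more, chosen after seeing the data, gave 37200000 fragments in WT and 33000000 in ΔM. Few fragments lay behind *Il1rl1* (about 0.90 in WT), *Il1r2* (10.2 in WT), *Il1r1* (23.4 in WT) and *Il33* (23.5 in ΔM).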
